A study of Drosophila melanogaster with 2 samples.

Results

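Small nucleolar RNA (snoRNA) genes were taken as all genes whose symbol starts with snoRNA: on the main chromosome arms of the fly genome (dm6), 257 of 18164 annotated genes. Binding of the protein CG17829 at them was read from chromatin immunoprecipitation with sequencing (ChIP-seq). The samples form 1 group of whole Drosophila melanogaster embryos, aged 0 to 24 h and of both sexes, from 1 transgenic line in which CG17829 carries a green fluorescent protein (GFP) at its C terminus; the immunoprecipitation used an antibody against GFP. The group had 2 biological replicates, numbered 2 and 4, from separate biosamples of that line, and 1 control alignment was used for both. What drives the transgene is not given in the sources used here, and the labels give no other genotype, treatment or age, so the results compare places in the genome and not conditions.

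CG17829 is named Hinfp in the annotation, after the human histone H4 transcription factor, a zinc finger protein. snoRNAs guide chemical marks onto ribosomal RNA: those of the C/D class direct 2'-O-methylation, and those of the H/ACA class direct the change of uridine to pseudouridine. Most fly snoRNAs are cut out of the introns of a longer host transcript, so that the promoter of the host makes the snoRNA, and many hosts encode ribosomal proteins. The Uhg genes are hosts whose spliced RNA has no known protein product and is known for the snoRNAs in its introns. U3 and U14 are C/D class RNAs that take part in cutting the ribosomal RNA precursor.

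The sequences that carry the result are the promoters under the binding summits, since few summits lay at the snoRNA genes themselves. Each window below holds the 101 bases centred on the summit of the reproducible peak, in dm6 coordinates, read 5' to 3' on the strand of the named gene from the RefSeq sequence of the assembly. The set shows the strongest host promoter (sta), ribosomal protein hosts with and without known promoter letters, the noncoding hosts Uhg8, Uhg2 and Uhg3, and a snoRNA gene with no host (snoRNA:Psi18S-301). Capitals mark TATCGATA (the DNA replication-related element, DRE), TATAAA on either strand, or CTTT beginning within 5 bases of an annotated start, which is the form of the TCT initiator known from fly ribosomal protein genes. A match is a description of the letters and not a binding site. In sta none of the letters searched for was found, and in Uhg2, Uhg3 and the hostless window none other than CTTT. For CTTT the absence of a mark says nothing in several windows. The starts of RpL28, Uhg8 and Uhg2 lie outside their windows, and that of Uhg3 is the last base of its window. The hostless window was not searched for CTTT.
sta, chrX:1483321-1483421, minus strand: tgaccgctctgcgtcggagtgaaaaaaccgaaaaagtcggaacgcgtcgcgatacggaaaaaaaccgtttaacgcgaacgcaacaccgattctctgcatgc
RpL14, chr3L:8600936-8601036, plus strand: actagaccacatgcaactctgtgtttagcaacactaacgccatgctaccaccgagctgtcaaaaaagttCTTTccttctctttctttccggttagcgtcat
RpL28, chr3L:3222980-3223080, minus strand: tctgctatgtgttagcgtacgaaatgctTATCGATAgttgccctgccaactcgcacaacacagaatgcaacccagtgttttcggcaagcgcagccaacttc
RpS7, chr3R:30208986-30209086, minus strand: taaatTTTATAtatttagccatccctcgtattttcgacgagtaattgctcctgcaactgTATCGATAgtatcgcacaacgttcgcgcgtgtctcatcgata
Uhg8, chr3L:20453064-20453164, plus strand: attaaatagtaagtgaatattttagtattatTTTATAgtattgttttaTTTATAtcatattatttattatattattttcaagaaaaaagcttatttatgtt
Uhg2, chr2L:9895022-9895122, minus strand: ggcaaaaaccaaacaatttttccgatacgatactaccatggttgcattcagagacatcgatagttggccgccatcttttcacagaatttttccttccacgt
Uhg3, chr2L:20647433-20647533, plus strand: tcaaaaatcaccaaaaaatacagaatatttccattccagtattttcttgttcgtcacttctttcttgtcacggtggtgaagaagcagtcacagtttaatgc
snoRNA:Psi18S-301, chr3R:20574740-20574840, plus strand: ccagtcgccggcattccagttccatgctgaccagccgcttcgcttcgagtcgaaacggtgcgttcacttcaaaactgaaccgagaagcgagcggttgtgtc
The next pair shows 1 snoRNA gene of each class, both in introns of hosts with a summit: snoRNA:U14:30Ea in Uhg2 and snoRNA:Psi18S-1295 in RpS20. Capitals mark TGATGA (box C) and CTGA (box D) in the first, and ACA near the 3' end in the second.
snoRNA:U14:30Ea, chr2L:9894205-9894285, minus strand: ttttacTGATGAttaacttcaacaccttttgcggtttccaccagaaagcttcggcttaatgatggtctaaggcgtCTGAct
snoRNA:Psi18S-1295, chr3R:20822610-20822749, plus strand: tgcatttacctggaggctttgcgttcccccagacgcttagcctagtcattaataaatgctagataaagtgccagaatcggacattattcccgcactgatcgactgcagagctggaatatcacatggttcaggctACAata

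The class given by the symbols was checked against these boxes. Of the 98 genes with a C/D symbol, 67 held TGATGA in their first 25 bases, 94 held CTGA in their last 25 and 66 held both. Of the 115 genes with an H/ACA symbol, 110 held ACA in their last 10 bases and 0 held TGATGA at the 5' end, a count that allows a share of up to 2.61%. The median length was 80 bp for C/D genes and 140 bp for H/ACA genes. For a further 44 genes, among them U27, U29, U31 and those named after their host, the symbol prefixes used here set no class. Of these 44, 13 held both TGATGA and CTGA in the stretches searched, and 15 held ACA in their last 10 bases. Genes of both classes may therefore be among them.

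Of the 257 snoRNA genes, 206 (80.2%, exact 95% interval 74.7 to 84.9%) had a summit within 250 bp, either of the gene or of a transcription start site (TSS) of a host, in the reproducible peak list. That list is the authors' set thresholded by the irreproducible discovery rate (IDR), and a gene with such a summit is called here; the interval is a Clopper-Pearson interval and covers counting error only. Over all 18164 genes, 4683 (25.8%) met the 250 bp limit at a TSS of their own. The share was 31.7% over protein-coding genes and 6.1% over genes of the annotation class ncRNA. A snoRNA gene has more places at which to be called than these genes have, namely its whole length and all host TSSs, so the same rule was also applied to other small genes. Under it 87 of 260 microRNA genes (33.5%), 63 of 290 transfer RNA genes (21.7%) and 328 of 765 other genes of at most 500 bp inside a same-strand host (42.9%) were called.

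The summits lay at the hosts' promoters. Only 16 snoRNA genes (6.23%, 3.60 to 9.91%) had an IDR summit within 250 bp of the gene itself, while 198 of the 236 with a host (83.9%, 78.6 to 88.3%) had one at a host TSS. The count split into 190 genes called at the host TSS only, 8 at both places, 8 at the gene only and 51 at neither. For comparison, a host TSS was called for 82 of 182 hosted microRNA genes (45.1%) and 22 of 59 hosted transfer RNA genes (37.3%). For the other short genes it was 305 of 765 (39.9%). A host here is a gene with a same-strand transcript that contains the whole snoRNA gene. Of the 257 genes, 216 lay in an intron of every host transcript, 6 in an exon, 14 in an intron or an exon depending on the transcript, and 21 had no host. The nearest host TSS lay a median of 1433 bp upstream of the snoRNA gene.

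**Figure D1:**
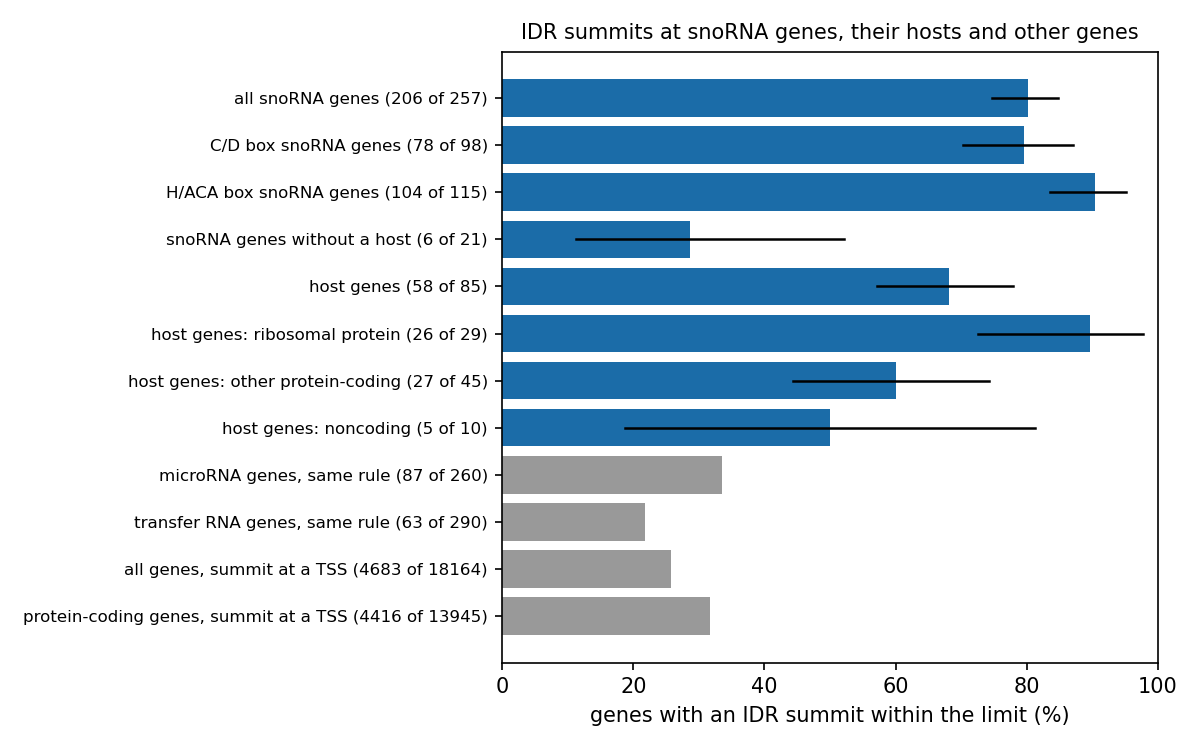
Share of genes with an IDR summit within 250 bp, in percent on the horizontal axis, for snoRNA genes and their hosts by group (coloured bars) and for the background sets (grey bars). Black lines are exact 95% intervals for counting error, which treat the genes as independent and are too narrow where snoRNA genes share a host. snoRNA genes stood at 80.2% and ribosomal protein hosts at 89.7%, against 25.8% of all genes.

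The longer lists were read in the same way. The list of each replicate and the pooled list of both hold 30000 peaks each, so more of every kind of gene is called there. In replicate 2, 242 snoRNA genes (94.2%) were called against 42.5% of all genes at a TSS, and in replicate 4 also 242 (94.2%) against 41.7%. In the pooled list 243 (94.6%) were called against 42.1%. In both replicate lists 236 snoRNA genes were called, and 9 were called in neither. The shares of all genes called in both lists or in neither are not given here, so these counts stand without a background.

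Genes that share a host share a promoter and are not independent observations, so the hosts were counted as well. The 236 hosted snoRNA genes fell into 85 host genes, each with 1 to 17 snoRNA genes, and 12 snoRNA genes had more than 1 host. Of the 85 hosts, 58 (68.2%, 57.2 to 77.9%) were called at a host TSS, and these were 58 different summits. By the same count 71 of 165 hosts of microRNA genes (43.0%), 15 of 42 hosts of transfer RNA genes (35.7%) and 128 of 364 hosts of the other short genes (35.2%) were called. Hosts of a single snoRNA gene were called in 23 of 46 cases (50%, 34.9 to 65.1%), hosts of 2 to 4 in 22 of 24 (91.7%, 73.0 to 99.0%) and hosts of 5 or more in 13 of 15 (86.7%, 59.5 to 98.3%). The share over snoRNA genes therefore stood above the share over hosts. Hosts with more than 1 TSS, which have more places to be called, stood at 32 of 40 (80.0%) and those with 1 TSS at 26 of 45 (57.8%).

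Among the kinds of host, ribosomal protein genes had the highest share called. Of 29 hosts that encode a cytosolic ribosomal protein, 26 (89.7%, 72.6 to 97.8%) were called, against 27 of 45 other protein-coding hosts (60.0%, 44.3 to 74.3%) and 5 of 10 noncoding hosts (50%, 18.7 to 81.3%). Ribosomal protein hosts carried 76 snoRNA genes, of which 73 were called through them, and other protein-coding hosts carried 115, of which 97 were. Of the ribosomal protein genes that host no snoRNA, 50 of 59 (84.7%, 73.0 to 92.8%) were called. The median rank of the called promoters, where rank 1 is the strongest of 7915 IDR peaks by the authors' deposited signal value, was 2128.5 for ribosomal protein hosts and 2751.5 for the ribosomal protein genes that are not hosts. The 3 uncalled ribosomal protein hosts were RpS6, RpL4 and RpL5, with the nearest IDR summit 440, 1737 and 286826 bp away. No difference between these groups of hosts was tested.

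The standing of the called host promoters in the IDR list is given as a description without a test. Their ranks ran from 52 to 7637 with a median of 2815.5, and the median over the 4667 called genes that are not snoRNA genes was 3649. The 27 other protein-coding hosts stood lower in the list than those genes, with a median rank of 4204, and the 26 ribosomal protein hosts (2128.5) and the 5 noncoding hosts (2077) stood higher. Over all 58 hosts the median signal was 302, against 255 over those genes, on a scale that the sources used here do not define. Over 5 equal stretches of the list, from the strongest to the weakest, the hosts numbered 15, 19, 6, 11 and 7. The weakest was SC35, a splicing factor gene at rank 7637, close to the end of the list.

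The strongest host promoter was that of sta, the gene of a small ribosomal subunit protein, with 2 snoRNA genes. Its summit ranked 52 in the IDR list, 63 in replicate 2 (signal 1077) and 46 in replicate 4 (signal 1013), at position 1483371 of chromosome X, 42 bp inside the gene. The summit also lies at the start of the neighbouring gene inc. Irbp, the fly Ku70 gene with 1 snoRNA gene, followed at IDR rank 219, with a signal of 702 in replicate 2 and 505 in replicate 4. It shares the summit with the start of mgr.

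Among the 15 strongest hosts were 8 further ribosomal protein genes. RpL14 (2 snoRNA genes) had IDR rank 534, with signals of 415 in replicate 2 and 397 in replicate 4 at a summit 20 bp upstream of its TSS. RpL23A (4 C/D genes) had IDR rank 640, with signals of 417 and 330 in that order of replicates. RpL11, RpL13A, RpL30, RpS20, RpL28 and RpL22 had IDR ranks of 663, 721, 768, 946, 1170 and 1527. Across these 6 the signal ran from 242 to 419 in replicate 2 and from 204 to 316 in replicate 4. The lowest of these values belonged in replicate 2 to RpL28 and in replicate 4 to RpL22. The strongest 15 also held the noncoding hosts Uhg4 (rank 530) and Uhg8 (rank 888), and the protein-coding genes drn (531) and Dys, the fly dystrophin gene (1175). The snoRNA gene in Dys lies 125111 bp downstream of the TSS with the summit, the longest such distance among the called hosts, whose median was 793 bp.

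Of the 15 hosts that carry 5 or more snoRNA genes, 13 were called. Those not called were Uhg1, described below, and lncRNA:CR45184, a noncoding host of 5 C/D genes. lncRNA:CR45184 had no summit within 250 bp of its TSSs in any list. Its 5 snoRNA genes also lie in Sf3b3 and were called through the Sf3b3 promoter at rank 4599. Arpc2, the gene of a subunit of the actin-nucleating Arp2/3 complex, carries 17 snoRNA genes, all H/ACA. Its summit had IDR rank 2085, with a signal of 159 (rank 3069) in replicate 2 and 188 (rank 1759) in replicate 4, 146 bp upstream of the TSS and shared with the start of CG10949. RpS5a carries 14 H/ACA genes and had IDR rank 3147, with signals of 170 in replicate 2 and 115 in replicate 4. The domino gene dom, which encodes a chromatin remodelling ATPase, carries 15 snoRNA genes, 12 of them H/ACA, and had IDR rank 4577 with signals of 126 in replicate 2 and 111 in replicate 4. These 3 promoters together account for 46 of the called snoRNA genes, with signals well below those of the strongest hosts in both replicates.

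Several of the other called hosts of this size carry snoRNA genes of 1 class. RpS7 (7 genes, rank 1733), kra (8 genes, rank 2590), a translation regulator gene, and Hrb98DE (7 genes, rank 5797), which encodes a nuclear RNA-binding protein, carry H/ACA genes only. RpL28 carries 5 C/D genes. Nop60B, which encodes the pseudouridine synthase of H/ACA particles, carries 6 C/D genes and 1 H/ACA gene and had IDR rank 2448. Its replicates differed by more than in most hosts, with a signal of 134 (rank 3983) in replicate 2 and 189 (rank 1729) in replicate 4. RpS16 (5 genes, rank 1754), CG10576 (5 genes, rank 3382) and the splicing factor gene Sf3b3 (9 genes, rank 4599) were also called.

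**Figure D2:**
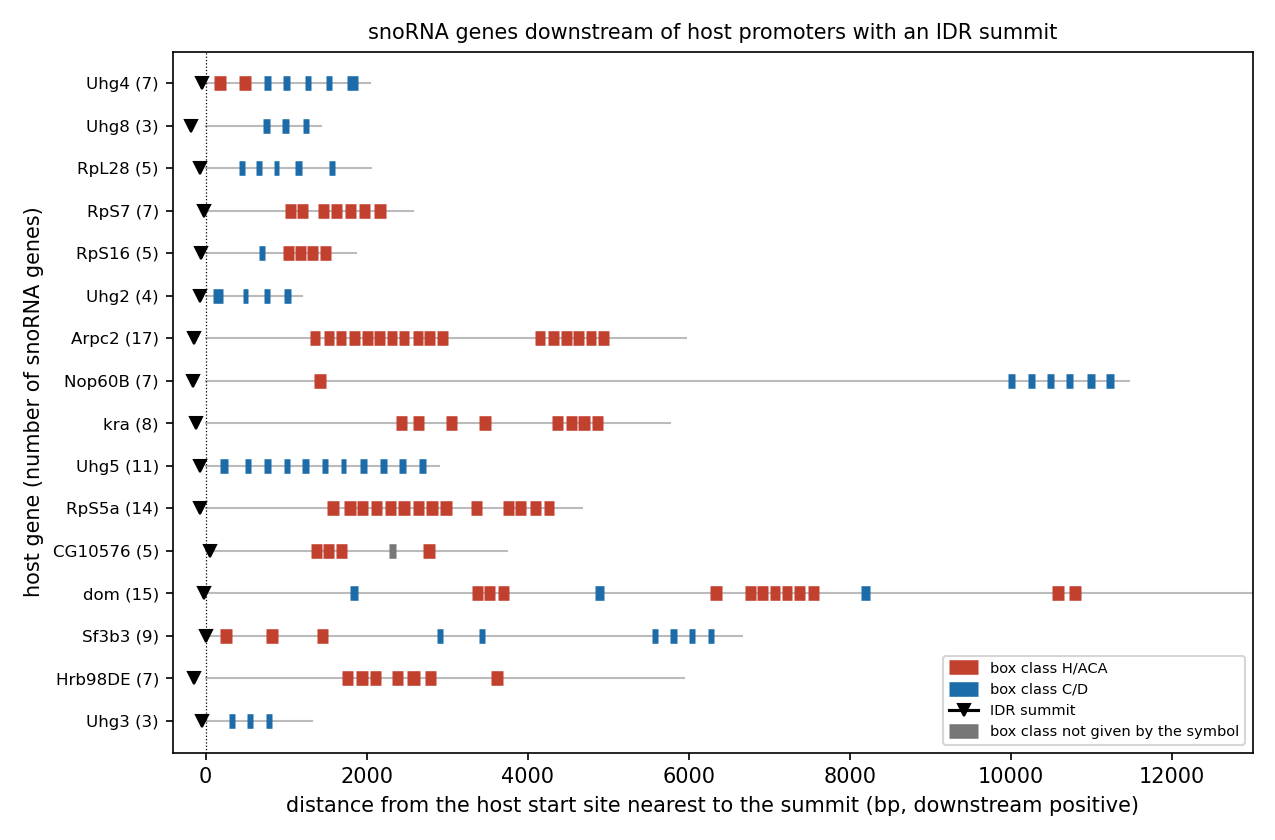
Called host genes with 5 or more snoRNA genes or a Uhg symbol, 1 per line with the number of snoRNA genes in brackets: grey lines show the gene, coloured blocks the snoRNA genes by class and black triangles the IDR summit, in bp from the host start site nearest to the summit on the horizontal axis (downstream positive). In the 13 called hosts with 5 or more, all 117 snoRNA genes lie downstream of the summit. The definition of a host and the 250 bp limit largely fix this position. A gene line that reaches the right edge continues past it.

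The Uhg genes differed among themselves. Uhg4 had a signal of 458 (rank 477) in replicate 2 and 338 (rank 633) in replicate 4, and Uhg8 had 348 (rank 817) and 261 (rank 996) in that order. Uhg2 had 199 and 164, Uhg5, the host of 11 C/D genes, had 185 and 127, and Uhg3 had 77.8 and 84.5, so that the order of these 5 hosts by signal was the same in both replicates. The summits of these 5 hosts lay 50 to 179 bp upstream of the TSS. At Uhg8, Uhg2 and Uhg5 the start of another gene (CG5199, Bka and CG12863 in that order) also lay within 250 bp of the summit. Which gene the summit belongs to cannot be told apart there. The Uhg8 peak ended short of the Uhg8 TSS, and Uhg8 was not called when a peak had to overlap a host TSS. Uhg1, with 16 snoRNA genes the largest noncoding host, was not called. Its nearest IDR summit lay 589 bp upstream (rank 4675), and the summits within 250 bp of its TSS ranked 11540 in the pooled list, 21636 in replicate 2 and 9156 in replicate 4. Uhg7 was not called at its own TSS, but it lies inside RpL23A on the same strand, and its 4 snoRNA genes were called through the RpL23A promoter at rank 640. Of the 48 snoRNA genes in Uhg hosts, 28 were called at a Uhg TSS.

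Uhg1 alone held 16 of the 51 uncalled snoRNA genes. Of the rest, 15 had no host and 20 had another host. Without Uhg1, 206 of 241 snoRNA genes (85.5%) were called. The lowest share by chromosome arm was on 2R, with 66 of 93 genes (71.0%), and it was 66 of 77 (85.7%) without Uhg1. On 2L, 3L, 3R and X the counts were 31 of 40, 44 of 49, 40 of 44 and 24 of 30, and the single gene on chromosome 4 was called. Of all uncalled genes, 28 had an IDR summit more than 250 and up to 1000 bp away. The 16 genes of Uhg1 are among these 28 and share 1 summit upstream of their host, so the 28 are not separate places. Over all genes, 25.8% had a summit within 250 bp of a TSS and 35.2% within 1000 bp. The nearest of the 28 was snoRNA:nop5-x16-a at 255 bp, and the called gene closest to the limit was snoRNA:SC35-a at 241 bp.

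By class, 104 of 115 H/ACA genes (90.4%, 83.5 to 95.1%) and 78 of 98 C/D genes (79.6%, 70.3 to 87.1%) were called, and 24 of the 44 genes with no class in the symbol (54.5%, 38.8 to 69.6%). Counted by host the order of the first 2 classes was the other way round: 22 of 31 hosts of H/ACA genes (71.0%) and 29 of 38 hosts of C/D genes (76.3%) were called. Arpc2, RpS5a and dom alone held 43 of the H/ACA genes. The shares by class leave out any C/D or H/ACA genes among the 44 without a class. Without Uhg1, 78 of 93 C/D genes (83.9%) and 24 of 33 genes without a class (72.7%) were called. No difference between the classes was tested.

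A called host has its summit within 250 bp of a host TSS by the rule, so closeness to the start is fixed by the choice. Inside that limit the distance to the nearest host TSS had a median of 66.5 bp. It was 93 bp over the 4667 called genes that are not snoRNA genes, to which the same limit applied. Of the 58 summits, 45 lay upstream and 12 downstream of the TSS, and 21 lay within 50 bp. The median position was 60 bp upstream for the hosts and 86 bp upstream for those genes. Relative to the TSS, where negative values are upstream, ribosomal protein hosts had a median of -21.5 bp, other protein-coding hosts -79 bp and the 5 noncoding hosts -66 bp. At 21 of the 58 summits a TSS of another gene that is not a snoRNA gene also lay within 250 bp, and which of the neighbours a summit belongs to cannot be told apart there.

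**Figure D3:**
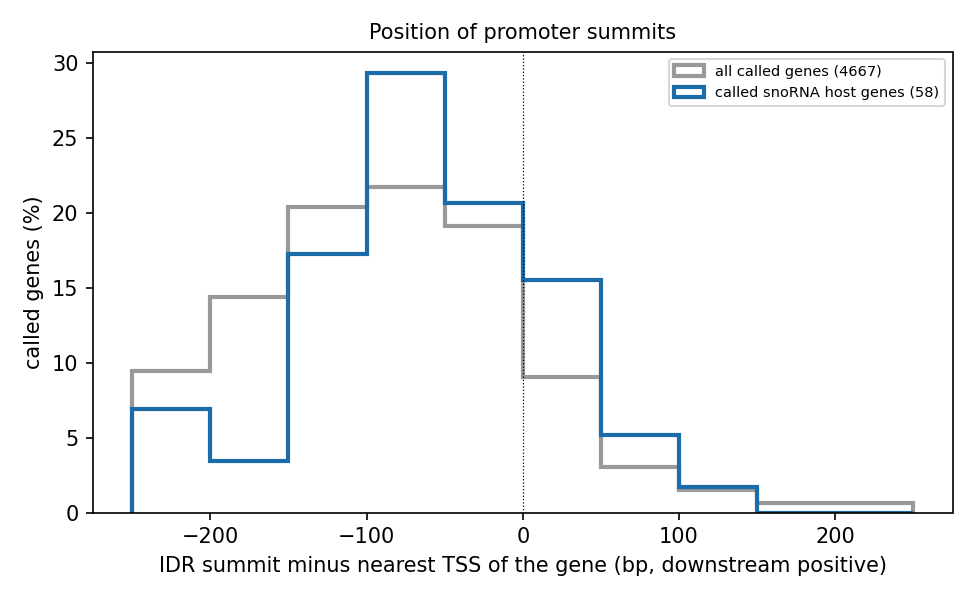
Position of the summit relative to the TSS in bp (horizontal axis, negative values upstream) for the 58 called snoRNA hosts and for all called genes. The medians are 60 bp upstream for hosts and 86 bp upstream for the 4667 called genes that are not snoRNA genes.

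The called host promoters were chosen by IDR peaks, which are exactly the strongest peaks of the pooled list of these same 2 replicates. Some likeness between the replicates is therefore fixed by the choice. A call did not require a peak in each replicate list. A peak of both replicate lists overlapped the IDR peak at 57 of the 58 hosts, and across these 57 loci the log10 signals had a Pearson r of 0.89 and a Spearman rho of 0.88, given as a description because the loci share the same 2 libraries. The median signal was 168 in replicate 2 and 136 in replicate 4, values from separate lists that were not put on a common scale. The exception was RpL36A, the IDR peak of which (rank 7152) overlapped a replicate 2 peak at rank 4894 and none in replicate 4. At 5 hosts the 2 ranks differed by more than 2-fold. These were lola (ranks 4239 and 14777), RpS12 (3537 and 9187), pths (3129 and 7525), Nop60B and CG10576, the first 3 higher in replicate 2 and the last 2 higher in replicate 4; lola, RpS12, pths and RpL36A, like SC35 above, were named after their values were seen.

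**Figure D4:**
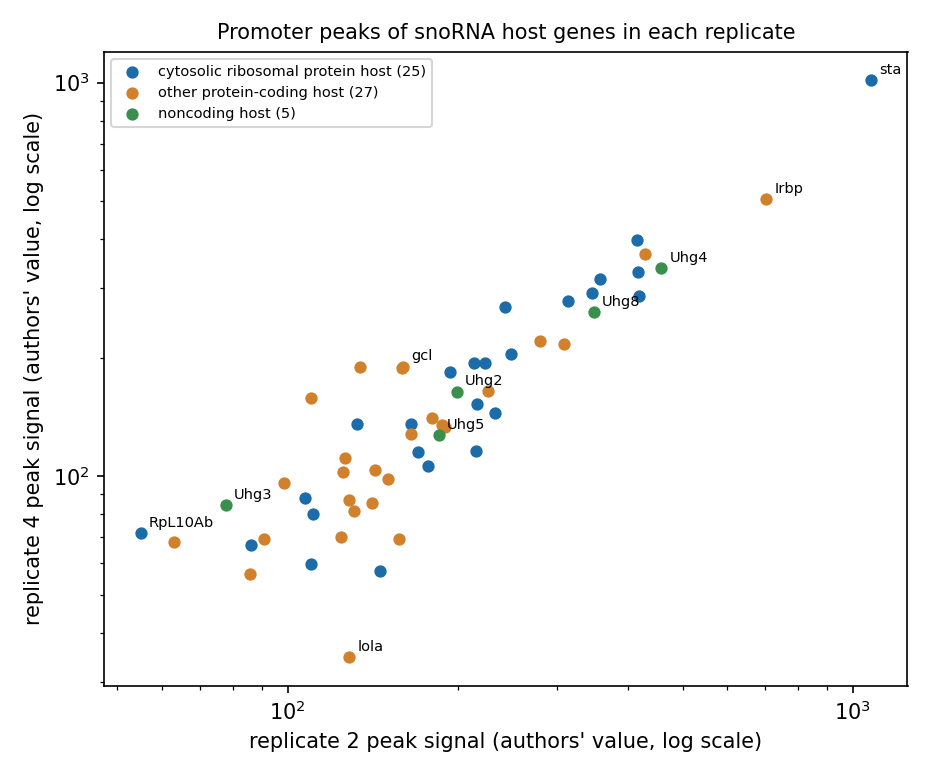
Signal at the 57 host promoters with a peak in both replicate lists, replicate 2 on the horizontal and replicate 4 on the vertical axis, both log scaled and in the authors' units. The points run from sta at the top (1077 and 1013) down to values near 50, and lola lies furthest below the others.

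Of the snoRNA genes with no host transcript, 6 of 21 (28.6%, 11.3 to 52.2%) were called, a share near the 25.8% of all genes at a TSS. These genes were counted over their whole length, and all genes at TSSs only. Under the rule with gene length and host TSSs, 33.5% of microRNA genes and 21.7% of transfer RNA genes were called. In the longer lists 13 of the hostless snoRNA genes had a summit in replicate 2, 15 in replicate 4 and 14 in the pooled list (61.9%, 71.4% and 66.7%). There 42.5%, 41.7% and 42.1% of all genes were called at a TSS. The strongest was at snoRNA:185, with IDR rank 1486 and signals of 314 in replicate 2 and 139 in replicate 4, but the start of tRNA:Glu-TTC-1-5 lies at the same summit. snoRNA:Psi18S-301, an H/ACA gene, had a summit 116 bp upstream of its 5' end, with no other gene start within 250 bp, at IDR rank 2701 with signals of 165 in replicate 2 and 147 in replicate 4. The gene FBgn0263459, a snoRNA gene on arm 2R, followed at rank 3231, with the summit 136 bp upstream and signals of 159 and 121. snoRNA:Psi18S-176 (rank 4638), snoRNA:Psi28S-3342 (rank 7748) and snoRNA:Or-aca4 (rank 7911) had weaker peaks, the latter near the end of the IDR list. A further 2 hosted genes had a summit at the gene and none at the host TSS: snoRNA:Me18S-C1968 in Swim, with the summit inside the gene at rank 7230, and snoRNA:Or-ACA9 in AdamTS-A, at rank 7086.

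None of the 3 U3 genes, all without a host, had an IDR summit within 250 bp, and all 3 had a peak in every longer list. Their pooled ranks were 8516 at snoRNA:U3:9B, 13020 at snoRNA:U3:54Aa and 10436 at snoRNA:U3:54Ab. snoRNA:U3:9B had a signal of 88.5 (rank 6839) in replicate 2 and 32.7 (rank 15674) in replicate 4, so the replicates differed widely there. snoRNA:U3:54Aa had 36.0 and 32.6, and snoRNA:U3:54Ab had 54.7 and 47.2, in that order. At snoRNA:U3:54Ab the strongest pooled summit lay 233 bp upstream of the 5' end. The replicate summits lay 257 and 281 bp downstream of that end, past the gene. Every stretch of 32 bases in snoRNA:U3:54Aa and snoRNA:U3:54Ab occurs elsewhere in the assembly too, so reads from inside them cannot be placed on 1 copy. The 2 U14 genes, snoRNA:U14:30Ea and snoRNA:U14:30Eb, lie in introns of Uhg2 and were called through its promoter at rank 2077. No symbol names U8. Over the whole set, 213 of 257 snoRNA genes had at least 90% unique 32-base stretches and 4 had under 10%, while 57 of the 58 summit windows of called hosts had at least 90%.

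The protein genes of the snoRNA particles were looked at next to the RNA genes. Of 14 such genes, 10 (71.4%) were called at a TSS, against 31.7% of protein-coding genes. Fibrillarin (Fib), the methyltransferase of C/D particles and itself a snoRNA host, had IDR rank 3036 with signals of 166 in replicate 2 and 128 in replicate 4. Of the other core C/D proteins Nop56 was called at rank 4600, and nop5, the fly Nop58 gene, and hoip, the gene of the protein that binds the kink-turn, were not. nop5, also a host, had its nearest IDR summit 255 bp upstream at rank 1691. Of the core H/ACA proteins, NHP2 (rank 1113, signals 310 and 230), Nop60B (rank 2448) and Nop10 (rank 3611) were called, and Gar1 was not, with ranks of 8025 in replicate 2 and 17067 in replicate 4. Among the assembly factors the strongest was pontin (pont), an AAA+ ATPase gene, at rank 165 with signals of 761 in replicate 2 and 607 in replicate 4. Its partner rept (rank 4687), Nufip (3825), Nopp140 (3025) and CG10341, the fly Naf1 gene (6626), were called, and CG10055, the Shq1 gene, was not. At 6 of the 10 called genes a start of another gene lay at the same summit: CG3085 at Fib, mats at Nop56, mms4 at Nop10, Atg3 at Nufip, mRpL21 at rept and Sirt6 at pont.

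Promoter letters were counted over TSSs, several of which can belong to 1 host, and no difference between kinds of host was tested. Within 250 bases before and 50 after the TSS, TATCGATA (the DRE) stood at 27 of 156 host TSSs (17.3%) and at 6.79% of all 23584 TSSs, on either strand. By kind of host it stood at 14 of 57 TSSs of ribosomal protein hosts, 12 of 86 of other protein-coding hosts and 0 of 12 of noncoding hosts, which allows a share of up to 25%. CTTT at the start, searched on the strand of the gene, stood at 38 of 156 host TSSs (24.4%) and at 6.40% of all TSSs. It was found at 24 of 57 TSSs of ribosomal protein hosts (42.1%), at 11 of 86 of other protein-coding hosts (12.8%) and at 3 of 12 of noncoding hosts (25%). CGGACG, the core of the sequence known for human HINFP, stood at 6.41% of host TSSs and 6.39% of all. GGTCACAC, the core of fly promoter Motif 1, stood at 11.5% against 5.66%, the E-box CAGCTG at 8.97% against 16.6% and TATAAA at 37.2% against 41.4%.

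In the 101-base windows around the summits the counts are small. TATCGATA stood in 7 of 58 host windows (12.1%) and in 6.72% of 3809 windows of all promoter IDR peaks. Of those 7, 6 were ribosomal protein hosts, among them RpL28 and RpS7 shown above. GGTCACAC stood in 6 windows (10.3% against 5.57%), CGGACG in 2 (3.45% against 1.86%), CAGCTG in 2 (3.45% against 6.75%) and TATAAA in 12 (20.7% against 19.7%). The windows of sta (rank 52) and RpL14 (rank 534) held none of these 5 sets of letters. Windows with none of them occurred along the list, down to Dek at rank 7495. The share of such windows over all promoter IDR peaks was not counted.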

How the data were processed

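ChIP-seq of CG17829-GFP in fly embryos was available as 4 peak lists in dm6, per the deposited notes: 1 for each of the 2 replicates, 1 from both together (pooled) and 1 thresholded by IDR. The replicate and pooled lists were made by the authors from alignments with 1 control alignment; the IDR list comes from those lists. Neither aligner nor caller is given in the sources used here. The deposited signal has no stated scale, so peaks were only ranked by it inside each list. The −log10 q values that the authors deposited entered no test. Deposited peak starts, ends and summit offsets are positions, an other unit with no normalization. The replicate and pooled lists hold 30000 peaks each, and the 7915 IDR peaks are exactly the strongest of the pooled list. Read depth is unknown. No column belonged to samples of other series.

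Genes and TSSs came from Ensembl 115 (BDGP6.54), and sequences from the RefSeq copy of the same assembly; the coordinates are those of dm6. Positions are printed counting from 1. Summits within 250 bp were counted, and a replicate peak was matched to an IDR peak by overlap, then by the nearest summit. snoRNA, transfer RNA, small nuclear RNA and microRNA genes were not taken as hosts. With 1 group there was no contrast between samples and no test. Named hosts are the 15 strongest, all with 5 or more snoRNA genes and all Uhg genes; named snoRNA genes are U3, U14, the called ones with no host and those called at the gene but not at a host TSS; all 14 particle proteins are named. Of the 15 strongest hosts, 1 is not reported here. The members and lists were chosen with earlier results of these data known. Scripts ran in Python 3.11.15 with numpy 2.4.6, scipy 1.17.1 and matplotlib 3.10.9. The distance count was tested on simulated peaks placed around snoRNA genes, and the count at host TSSs was not tested in this way.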

Additional observations from a re-analysis of the deposited data

How the results depend on the processing

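The count of 206 called snoRNA genes rests on the host promoters: counted at the gene only it was 16, and with each host or hostless gene counted once it was 66 of 106. Within 100 bp it was 156 and within 1000 bp 234, where 14.6% and 35.2% of all genes were called. Among the strongest 50% of IDR peaks, 36 of the 85 hosts were called, against 13.9% of all genes. Hostless genes numbered 3 within 100 bp, 10 within 1000 bp and 14 in the pooled list, and 5 of 14 particle protein genes were called within 100 bp, against 18.2% of protein-coding genes. To leave out 1 replicate, the 7915 strongest peaks of the other were used. Without replicate 2, 196 snoRNA genes and 55 hosts were called, against 24.6% of all genes. Without replicate 4 these were 204 and 60, against 26.1%. Both times 10 particle protein genes were called, against 30.4% and 32.1% of protein-coding genes in that order. The causes of these shifts were not tested. No paired analysis was possible because there is only 1 group. Without read depth, the precision of a single signal is unknown, and the fixed list lengths set how many genes can be called.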
